A study of Mus musculus with 6 samples.

Results

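The genes described here are 53 genes of the lysosome: 6 for proteins of its membrane, 12 for proteases, 12 for glycosidases, 4 for sulfatases, 7 for lipid hydrolases and the proteins that assist them, 3 for transcription factors of the MiT/TFE family, 1 for a sorting receptor and 8 for V1 subunits of the proton pump. They were taken by symbol from a list of names, and all 53 were found among the 17830 genes of the deposited counts. The study asked how osteoblasts that make the Swedish-mutant form of human amyloid precursor protein (APPswe) differ from osteoblasts that do not. Bulk RNA sequencing was done on 6 libraries of cells labelled osteoblasts from skull bone of male mice aged 6 months, 3 from control mice (mOCN-Cre;Ai9) and 3 from APPswe mice (TgAPPswe mOCN-Cre;Ai9). Both genotypes carry mOCN-Cre, which places Cre under the mouse's own osteocalcin gene, Bglap, and Ai9, a reporter allele from which the red fluorescent protein tdTomato is made in cells where Cre has been active. They differ in the transgene, whose expression also requires Cre. The paper's methods describe osteoblast cultures that grew out of cleaned bone fragments, and its account of the sequencing does not mention culture. The sequenced cells were sorted for tdTomato, which marks any cell whose osteocalcin promoter was active then or earlier, along with that cell's progeny. The labels do not say whether the libraries of a genotype came from separate animals, so the p-values measure only the spread between these samples, which may be technical.

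Total counts were 17649704, 18134411 and 18398392 for control replicates 1, 2 and 3, against 17263757, 17555489 and 17483141 for the APPswe replicates. Levels within a gene are given as counts per 1000000 (CPM) after scaling by the trimmed mean of M-values (TMM), with control replicates 1, 2 and 3 named first and APPswe replicates 1, 2 and 3 after them. Levels of different genes are set side by side only as FPKM, the authors' values per kilobase of transcript. The genotypes were compared with edgeR's quasi-likelihood test over the 13484 genes with enough counts, all 53 lysosome genes among them. A gene was called higher or lower at a Benjamini-Hochberg adjusted p of at most 0.05. A negative log2 fold change means less RNA in APPswe, and each is given with its standard error (SE).

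Lysosomes are acidic compartments in which proteins, glycans, lipids and nucleic acids taken up from outside or delivered by autophagy are broken down. Their soluble enzymes are tagged with mannose 6-phosphate in the Golgi and carried there by receptors, the V-ATPase pumps protons inward to give the low pH at which those enzymes work, and heavily glycosylated membrane proteins line the inner face. MiT/TFE transcription factors bind a short element shared by the promoters of many of these genes, and in bone the same machinery serves matrix turnover and, in osteoclasts, the acid secretion that dissolves mineral.

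The label was checked against marker genes before the lysosome genes were compared. All of the 11 osteoblast genes except Sost had counts in every library. Bglap, Ibsp, Dmp1 and Phex, however, had 3 counts or fewer in control replicate 2. The collagen gene Col1a2 was the most abundant of the list at a mean of 928 FPKM. Bglap, the gene that drives Cre, stood at 9.18, 0.0562 and 11.5 CPM in the control and 6.45, 7.13 and 8.93 CPM in the APPswe libraries, values that are uncertain because it shares reads with its close copy Bglap2. Sost, a marker of osteocytes, did not pass 3 counts in any library and was at 0 in control replicate 2 and APPswe replicate 3. Dmp1, also used as an osteocyte marker, was at 15.1, 0.112 and 14.3 CPM in control and 0.673, 0.891 and 0.787 CPM in APPswe. Its log2 fold change of -3.64 (SE 1.25) was not called (edgeR adjusted p = 0.0804). Without control replicate 2 it was called lower (-4.21, edgeR adjusted p = 1.44e-08). Genes of macrophages were counted in every library too: Lyz2, the lysozyme of myeloid cells, which shares reads with a close copy, had the highest mean of the 13 macrophage genes, 13143 FPKM, and none of the 13 was at 0 in a library. The libraries therefore carry RNA of osteoblast and of macrophage marker genes, and the cells are called here by their label.

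Control replicate 2 stood apart from the other libraries. The 4 Y-linked genes summed to 197, 0.112 and 179.7 CPM in the control libraries and 147, 128 and 127 CPM in the APPswe libraries, so they were nearly absent from control replicate 2, although the mice are described as male. Of the 11 osteoblast genes, 8 were lower in this library than in both other control libraries and 3 were higher (Runx2, Col1a1 and Col1a2), and the sum of the list was highest in it. Of the 5 endothelial genes, 4 were lower and 1 was higher (Kdr, at 10.9, 25.5 and 12.6 CPM in the control libraries). Among the low genes, Ibsp, a mineral-binding protein of osteoblasts, was at 84.8, 0.169 and 77.4 CPM in the control libraries and the endothelial gene Pecam1 at 47.8, 0.0562 and 50.5 CPM, and the osteoblast enzyme gene Alpl at 43.4, 1.97 and 43.7 CPM. Over all genes tested, the root mean square difference in log2 CPM was 0.652 between control replicates 1 and 2 and 0.658 between replicates 2 and 3, against 0.187 between replicates 1 and 3. Over the 53 lysosome genes the same measure was 0.326, 0.347 and 0.116. Results are therefore given with and without this library.

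**Figure D1:**
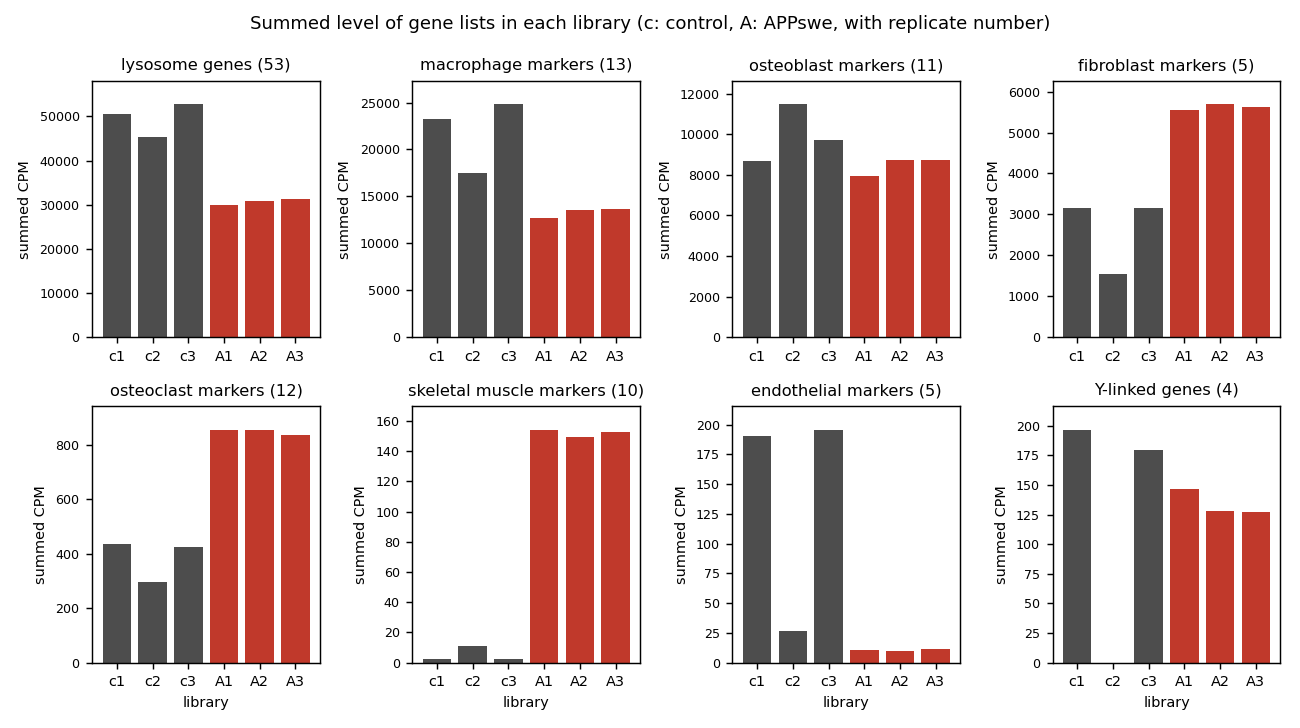
Summed level (CPM, vertical axes from 0) of the lysosome genes, of 6 lists of marker genes and of 4 Y-linked genes in each of the 6 libraries, with the number of genes in brackets; grey bars are control (c) and red bars APPswe (A) libraries, with the replicate number. The lysosome genes sum to 45435 CPM or more in each control library and to 31225 CPM or less in each APPswe library, and the Y-linked genes are nearly absent from control replicate 2.

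Most lysosome genes were lower in APPswe. The edgeR test called 29 of 53 lower, against 12% of all genes tested, and 1 of 53 higher, against 10.5% of all genes. The median log2 fold change was -0.42 over the 53 genes and -0.00 over all genes tested, and 48 of the 53 values were negative. Each APPswe library lay below each control library for 36 of 53 genes, against 22.2% of all genes, and above for 2 of 53, against 22.8%. When a log2 fold change of 1 or more in size was also required, 3 were lower (Ctsd, Ppt1 and Gaa; with library totals alone, 1), against 3.60% of all genes, and none was higher, against 3.74%; none was higher by that limit with DESeq2, with limma on FPKM or at an unadjusted p of at most 0.05 either. Of all genes called, 53.4% were lower in APPswe. That share was 41.1% when libraries were scaled by their totals alone, with 43 of the 53 lysosome genes negative, and it was 36.9% with limma on log2(FPKM + 1), with 44 negative.

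The lysosome genes together took 4.96%, 4.46% and 5.08% of all counts in the control libraries and 3.10%, 3.16% and 3.18% in the APPswe libraries. Summed, they reached 50599.9, 45435 and 52727 CPM in control and 30006, 30937 and 31225 CPM in APPswe, and the highest APPswe library remained well under the lowest control library. Ctsb and Ctsd made up much of that sum. Without this pair the sums were 28076, 25522 and 28469.7 CPM in control and 20335, 20601 and 20789 CPM in APPswe, so the other 51 genes were also lower as a group. In bulk RNA, fewer cells of a type and less RNA per cell cannot be told apart.

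Without control replicate 2 the edgeR test called 41 of 53 lower, against 25.0% of all genes, and 2 of 53 higher, against 23.3%. All 29 genes called lower with the 6 libraries were among the 41. In 10 of the 12 that were added, control replicate 2 had the lowest level of the control libraries, and in the other 2 it had the highest. The median log2 fold change was -0.51 without this library. When each library was left out in turn, 20 of the 29 genes were called lower every time. The fits without APPswe replicate 1, 2 or 3 called 5.08%, 3.90% and 3.96% of all genes lower, and those without control replicate 1 or 3 called 8.29% and 7.79%. The same shares apply to the counts of each list given below for these fits. The number called higher was 1 without APPswe replicate 1 and 0 without control replicate 1 or 3 or APPswe replicate 2 or 3 by edgeR, where DESeq2 with the 6 libraries called 1, limma 2, and an unadjusted p of at most 0.05 in edgeR 2.

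The names of the libraries are written in 2 styles, with a hyphen for control replicates 1 and 2 and APPswe replicate 1 and without one for control replicate 3 and APPswe replicates 2 and 3, and the blanks among the deposited FPKM values follow the style. The name of control replicate 2 is also the only one with the letter S, where the other 5 have an L, and the labels do not explain these letters. Among the hyphenated libraries the median difference of the 53 genes in mean log2 CPM, APPswe minus control, was -0.37, and 44 were negative. Among the others it was -0.50, and 47 were negative. Both sets gave a negative difference for 42 of the 53 genes.

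**Figure D2:**
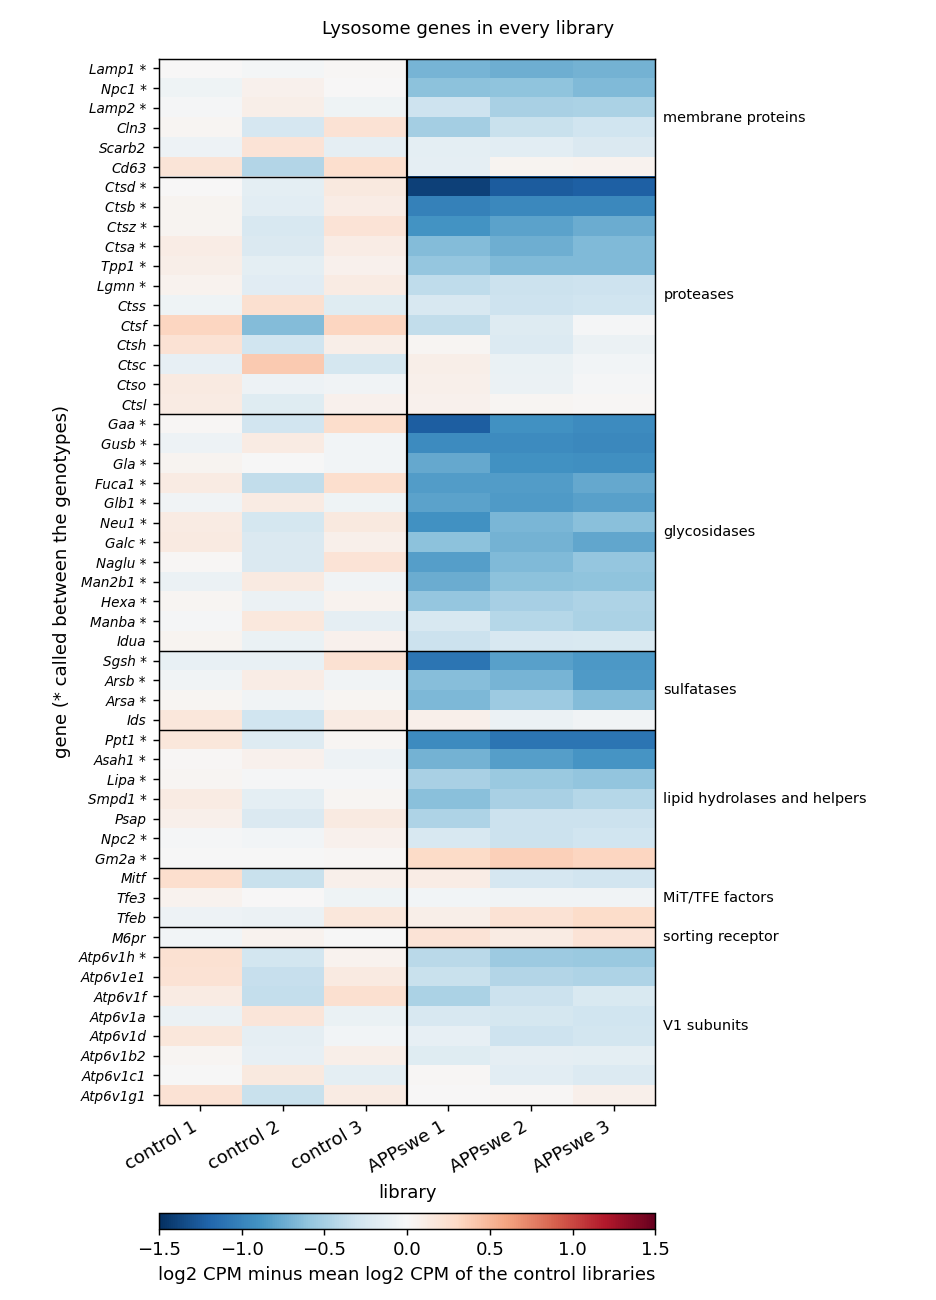
Level of each of the 53 lysosome genes (rows, by role) in each library (columns), as log2 CPM minus the mean log2 CPM of the control libraries; blue is below and red above that mean, and stars mark the 30 genes called. The 29 genes called lower are blue in all 3 APPswe libraries, Gm2a is red in all 3, and control replicate 2 departs from the other control libraries for genes such as Cd63 and Atp6v1f.

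**Figure D3:**
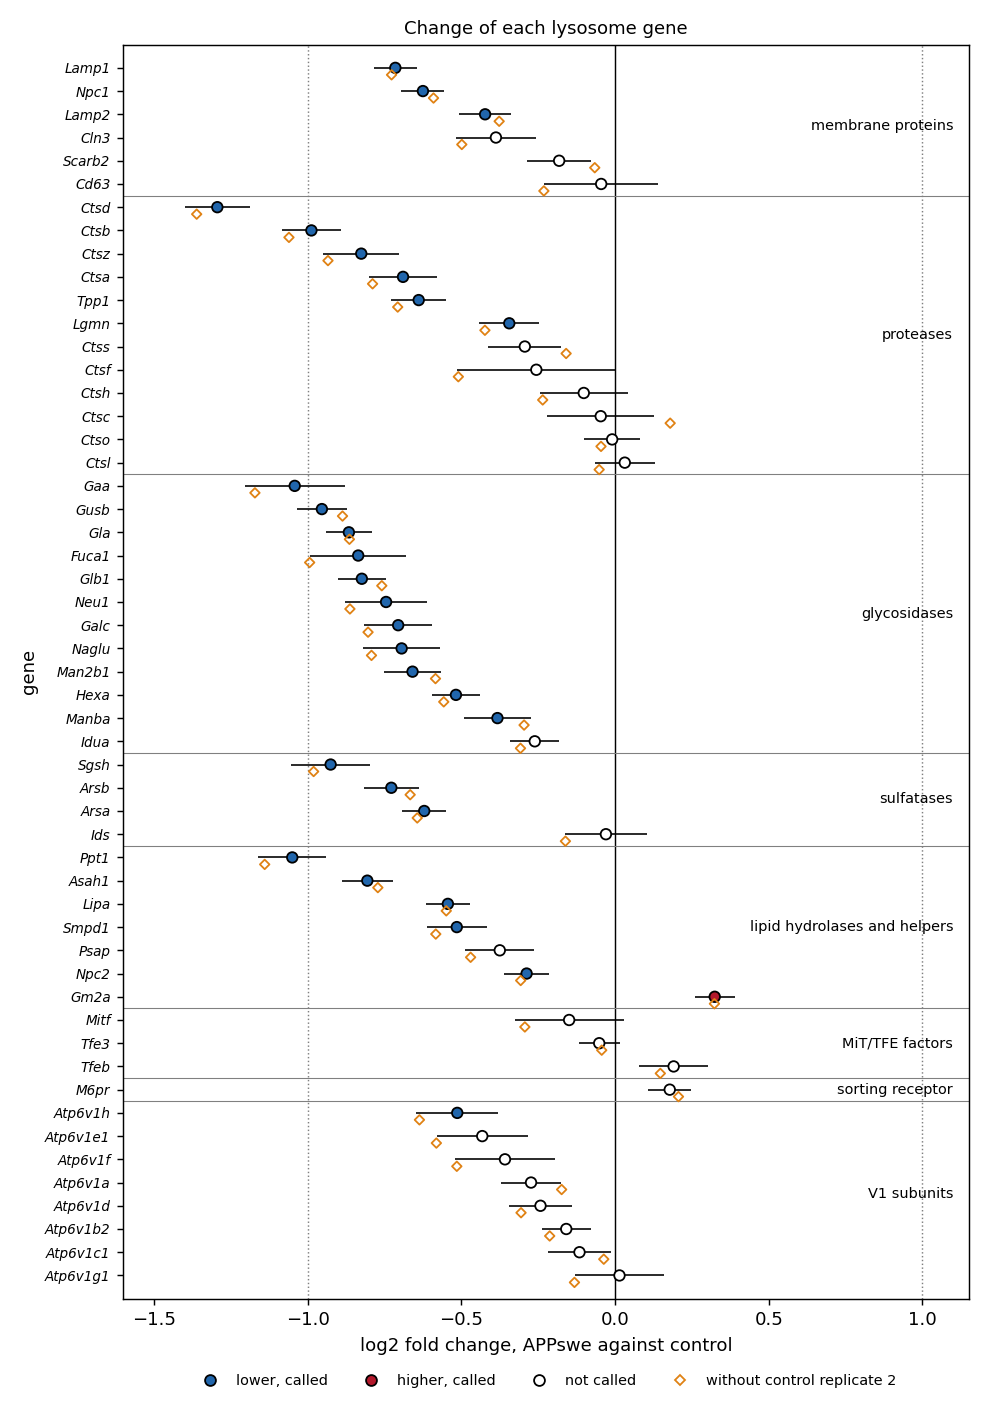
Log2 fold change of each lysosome gene, APPswe against control (horizontal axis; dotted lines at -1 and 1), with bars of 1 SE; filled circles are genes called lower (blue) or higher (red) by edgeR, open circles genes not called, and orange diamonds the value without control replicate 2. The enzymes reach furthest to the left, down to -1.29 for Ctsd, while the transcription factors and most V1 subunits lie nearer 0.

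The promoters of these genes were searched for the core of the element that MiT/TFE factors bind, because many lysosome genes are known targets of these factors and most of the 53 moved in one direction. The motif CACGTG and its longer form TCACGTGA both read the same on either strand, so that 1 search covers both, and every longer match contains a shorter one. Windows of 300 bases, 250 before and 50 after the annotated start, were available for 44 of the 53 genes from RefSeq (GRCm38.p6). Of these, 14 held CACGTG (31.8%), against 8.09% of the 27025 genes with a window and 11.6% of the 10731 such genes that were tested here. TCACGTGA was found in 5 of the 44 (Ctsa, Ctsd, Cln3, Gla and Atp6v1a, 11.4%), against 1.12% of all genes with a window and 2.11% of those tested. Among the genes called lower, 10 of 25 with a window held CACGTG, against 4 of 19 among the others, and among all genes called lower 14.1% held it. The shares over the 44 genes do not use the expression values, so they say nothing of the change in APPswe. The difference between the genes called lower and the others was not tested. A match describes these letters only and was not tested as a site of binding.

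For the promoters of a protease, a membrane protein and a glycosidase that were all called lower, the 250 bases before the start are printed with each CACGTG in capitals, 5′ to 3′ on the strand of the gene. Ctsd lies on the minus strand with its window at chr7:142387828-142388077, Lamp1 on the plus strand at chr8:13158911-13159160, and Gla on the minus strand at chrX:134601006-134601255. The Lamp1 window holds 4 copies within its last 61 bases, and the Ctsd and Gla windows hold 2 each.
Ctsd: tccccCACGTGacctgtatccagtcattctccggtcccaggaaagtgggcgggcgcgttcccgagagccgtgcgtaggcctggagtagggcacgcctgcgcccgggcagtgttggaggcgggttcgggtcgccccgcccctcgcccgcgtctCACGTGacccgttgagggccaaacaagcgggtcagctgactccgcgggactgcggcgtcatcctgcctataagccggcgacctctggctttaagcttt
Lamp1: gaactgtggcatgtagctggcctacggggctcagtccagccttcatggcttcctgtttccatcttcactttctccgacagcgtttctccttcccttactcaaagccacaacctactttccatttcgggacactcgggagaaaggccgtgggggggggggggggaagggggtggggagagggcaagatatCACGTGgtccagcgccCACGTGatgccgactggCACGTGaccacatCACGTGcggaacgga
Gla: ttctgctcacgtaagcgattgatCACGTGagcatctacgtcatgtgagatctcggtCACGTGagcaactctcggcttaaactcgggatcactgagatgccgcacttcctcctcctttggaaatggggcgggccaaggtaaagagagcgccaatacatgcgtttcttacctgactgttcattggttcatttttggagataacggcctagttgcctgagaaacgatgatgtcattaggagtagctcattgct

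Gaa, Glb1 and Sgsh, which were also called lower, carry a single copy, shown with up to 20 bases on each side. The first base of the motif lies 140 bases before the start in Gaa (chr11:119267803-119267848, plus strand), 48 before it in Glb1 (chr9:114401010-114401055, plus strand) and 29 before it in Sgsh (chr11:119355514-119355559, minus strand). Atp6v1a (chr16:44139365-44139410, minus strand), whose change did not pass the test, carries the longer form, with all of it in capitals.
Gaa: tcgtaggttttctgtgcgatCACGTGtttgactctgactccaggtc
Glb1: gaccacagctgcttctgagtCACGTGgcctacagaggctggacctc
Sgsh: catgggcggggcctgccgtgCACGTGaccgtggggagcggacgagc
Atp6v1a: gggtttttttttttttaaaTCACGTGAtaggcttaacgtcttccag

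Of the 6 membrane proteins, 3 were called lower (Lamp1, Lamp2 and Npc1), and all 6 had a negative log2 fold change, Cd63 with the opposite sign when libraries were scaled by their totals alone. Without control replicate 2, 5 of the 6 were called lower. Lamp1, one of the main glycoproteins of the lysosomal membrane and the gene with 4 motif copies shown above, was at 2319, 2251 and 2333 CPM in the control and 1413, 1383 and 1410.0 CPM in the APPswe libraries. The replicates of each genotype lay close together and the genotypes did not overlap. The log2 fold change was -0.71 (SE 0.07, edgeR adjusted p = 0.00142), and -0.73 without control replicate 2. Lamp2, its relative that also serves in chaperone-mediated autophagy, was at 752, 809.5 and 734 CPM in control and 616, 547 and 549 CPM in APPswe. These levels did not overlap either, but the distance was smaller. Lamp2 changed by -0.42 (SE 0.09, edgeR adjusted p = 0.0165), and its call was lost without APPswe replicate 2 (edgeR adjusted p = 0.0958) or replicate 3 (0.0920).

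Cd63, a tetraspanin of late endosomes and exosomes, was the most abundant membrane protein gene at a mean of 2001 FPKM. Its levels were 1469.6, 943 and 1523 CPM in control and 1165, 1318 and 1332 CPM in APPswe libraries. Control replicate 2 was the lowest of all 6, and the other control libraries were the highest. The log2 fold change was -0.04 (SE 0.19, edgeR adjusted p = 0.884), and 0.03 with library totals alone. It was -0.23 without control replicate 2 (edgeR adjusted p = 0.0167), 0.04 without control replicate 1, 0.07 without control replicate 3 and 0.02 without APPswe replicate 1. Npc1, which exports cholesterol from the lysosome, changed by -0.62 (SE 0.07, edgeR adjusted p = 0.00217) with all APPswe libraries below all control libraries. Scarb2, the receptor that carries glucocerebrosidase, and Cln3, a protein mutated in a neuronal storage disease, were not called, with log2 fold changes of -0.18 and -0.39. The value for Scarb2 was -0.07 without control replicate 2 and ran to -0.25 with another library left out. Cln3 was called lower without control replicate 2, with the name style in the model (edgeR adjusted p = 0.0302) and by DESeq2 (0.0390).

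Among the 12 proteases, 6 were called lower, or 9 without control replicate 2, and the change was uneven. Ctsd, cathepsin D, the main aspartic protease of the lysosome, had the largest fall of the 53 genes. Its levels were 10987, 9922 and 12166 CPM in the control libraries and 4157, 4628 and 4706 CPM in the APPswe libraries. Even the lowest control library, replicate 2, stood far above the highest APPswe library. This corresponds to a log2 fold change of -1.29 (SE 0.11, edgeR adjusted p = 0.000893), and to -1.36 without control replicate 2.

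Ctsb, cathepsin B, a cysteine protease, had the highest mean of the 53 genes, 4752 FPKM, followed by Ctsd with 4624 FPKM. Ctsb was counted at 11536, 9990.4 and 12092 CPM in control and 5514, 5709 and 5730.0 CPM in APPswe. The APPswe libraries were within a few percent of each other, and control replicate 2 was the lowest control library without reaching them. The fall was -0.99 on the log2 scale (SE 0.09, edgeR adjusted p = 0.00139). Ctsz, cathepsin Z, a carboxypeptidase, followed with 1053, 867 and 1178 CPM in control and 551, 587 and 610.4 CPM in APPswe. The groups were again apart, with a log2 fold change of -0.83 (SE 0.12, edgeR adjusted p = 0.00597).

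The other abundant cysteine proteases had smaller log2 fold changes. Ctss, cathepsin S, which trims the invariant chain in antigen-presenting cells, had a mean of 1659 FPKM and levels of 1910.1, 2364 and 1768 CPM in control and 1687, 1617 and 1626 CPM in APPswe. All APPswe libraries were below all control libraries, and the control libraries differed among themselves more than the genotypes did at their nearest points. Its log2 fold change of -0.29 (SE 0.12) did not pass the test (edgeR adjusted p = 0.124), whereas without control replicate 2, the highest library, a smaller change of -0.16 did (edgeR adjusted p = 0.0428). Ctsl, cathepsin L, a broad endopeptidase with a mean of 994 FPKM, was at 1515, 1223 and 1448 CPM in control and 1454, 1415 and 1410.3 CPM in APPswe. These ranges overlapped, and the log2 fold change was 0.03 (SE 0.10, edgeR adjusted p = 0.844), and -0.05 without control replicate 2. Of the remaining proteases, Ctsa, Tpp1 and Lgmn were called lower, with log2 fold changes from -0.69 to -0.34, and Ctsc, Ctsf, Ctsh and Ctso were not called, with values from -0.26 to -0.01. Lgmn kept its call without control replicate 2 and lost it without any other single library. It also lost it with library totals alone, no filter, at least 10 counts in every library or the replicate block, at edgeR adjusted p = 0.0780, 0.0558, 0.0531 and 0.0834, and with limma on FPKM (0.0854 to 0.101). The sign turned for Ctsc without control replicate 2 (0.18), for Ctsh without control replicate 1 (0.01), and for Ctso without control replicate 1 (0.06) or APPswe replicate 2 (0.03). It also turned for Ctsc and Ctso with library totals alone or the name style in the model, and for Ctso with limma on FPKM. Ctsf and Ctsh were called lower without control replicate 2.

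**Figure D4:**
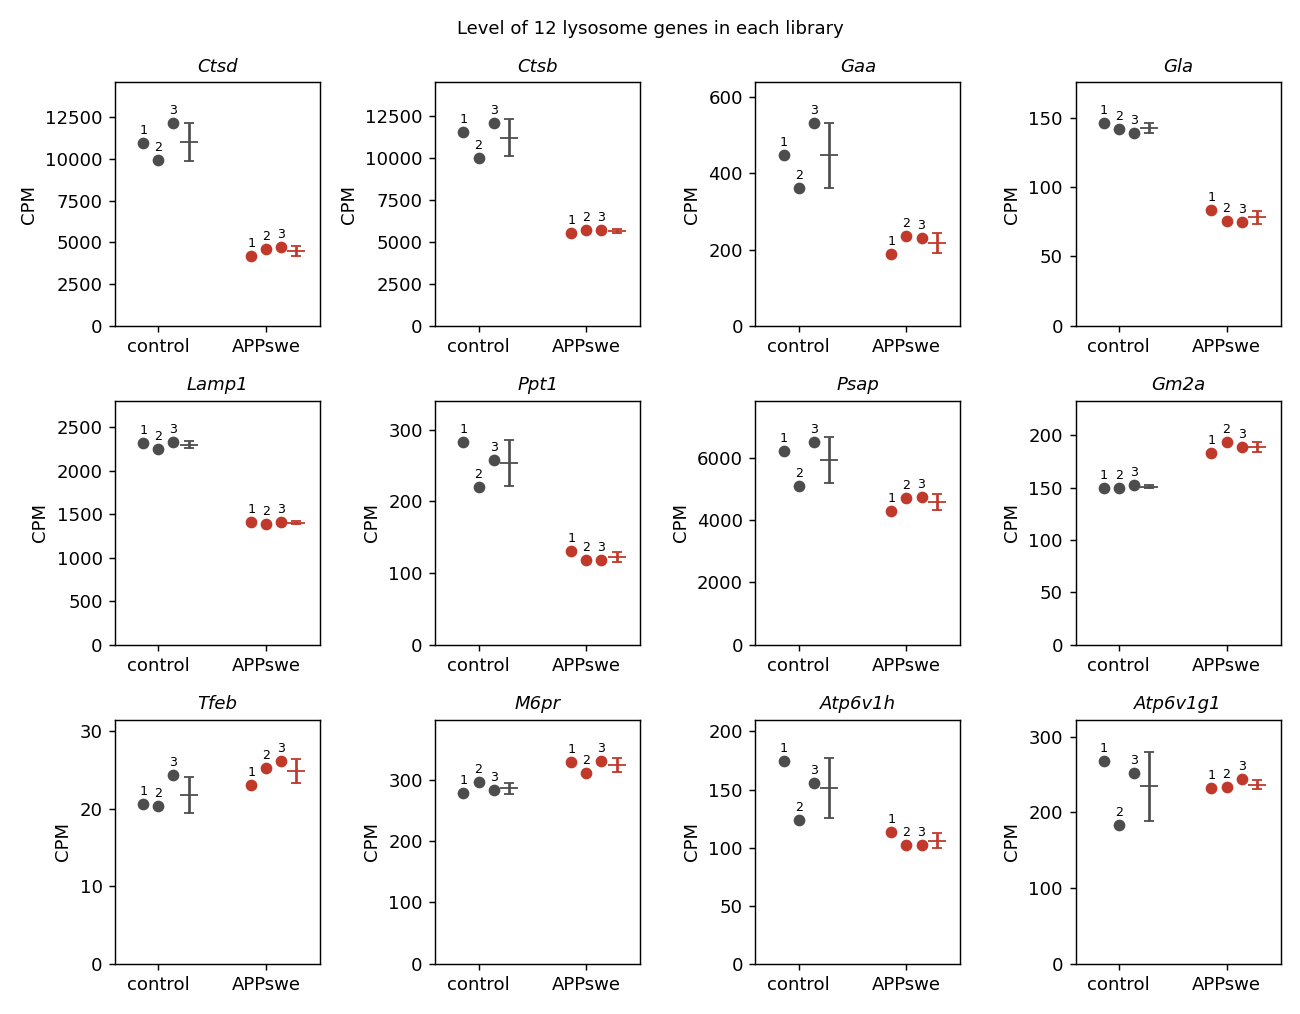
Level (CPM, vertical axes from 0) of 12 lysosome genes in each library; points are libraries with their replicate number, grey for control and red for APPswe, and the bar beside them is the mean with 1 SD (n = 3). Ctsd, Ctsb, Gaa, Gla, Lamp1 and Ppt1 separate the genotypes with no overlap, Gm2a is higher in APPswe, and Tfeb and Atp6v1g1 overlap.

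The glycosidases, which remove sugars from glycoproteins, glycolipids and glycosaminoglycans, had 11 of 12 called lower, and each of the 12 had its APPswe libraries under its control libraries without overlap. Without APPswe replicate 1 or APPswe replicate 2, 7 were called lower. Gaa, acid alpha-glucosidase, which degrades glycogen in the lysosome, was at 449, 361 and 532 CPM in control and 187, 236 and 229 CPM in APPswe. The control libraries were widely spread, with replicate 3 highest. Gaa fell, with a log2 fold change of -1.04 (SE 0.16, edgeR adjusted p = 0.00669).

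Gusb, beta-glucuronidase, was counted at 507, 583 and 519.8 CPM in control and 279, 279.5 and 273 CPM in APPswe libraries. Here control replicate 2 was the highest library, and the fall was -0.95 (SE 0.08, edgeR adjusted p = 0.00102). Gla, alpha-galactosidase A, whose promoter carries the longer motif, stood at 146, 142 and 139 CPM in control and 83.8, 75.5 and 75.1 CPM in APPswe. Its control libraries agreed closely, and the log2 fold change was -0.87 (SE 0.07, edgeR adjusted p = 0.00103). Glb1, the lysosomal beta-galactosidase whose activity is used as a stain for senescent cells, had 179.9, 203 and 179 CPM in control and 108, 104 and 107 CPM in APPswe. The change of -0.82 (SE 0.08, edgeR adjusted p = 0.00132) was near that of Gla.

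Fuca1, alpha-L-fucosidase, was more variable among controls, with 261, 187 and 286 CPM, against 135, 135 and 141 CPM in APPswe. Control replicate 2 lay between the other control libraries and APPswe. Fuca1 had a log2 fold change of -0.84 (SE 0.16, edgeR adjusted p = 0.0125), and without this library -0.99 (edgeR adjusted p = 5.88e-07). Its call was lost without APPswe replicate 1, 2 or 3, at edgeR adjusted p = 0.0611, 0.0656 and 0.0599. Neu1, the sialidase that works in a complex with Glb1 and Ctsa, had 127, 96.7 and 128 CPM in control and 62.1, 72.5 and 75.2 CPM in APPswe. The groups were apart, with a change of -0.74 (SE 0.13, edgeR adjusted p = 0.0110), and the call was lost without APPswe replicate 1 (edgeR adjusted p = 0.0518) or 2 (0.0541). Hexa, Galc, Naglu, Man2b1 and Manba were also called lower, with log2 fold changes from -0.71 to -0.38, and Idua was not (-0.26, edgeR adjusted p = 0.0574), though it was without control replicate 2, with the name style in the model (edgeR adjusted p = 0.0413) and by DESeq2 (0.0493). Naglu lost its call without APPswe replicate 1 or 2, and Manba without control replicate 1 or any APPswe library. The call of Manba was also lost with library totals alone, no filter or the replicate block, at edgeR adjusted p = 0.0936, 0.0594 and 0.0722, and with limma on FPKM (0.106 to 0.125).

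Of the 4 sulfatases, which remove sulfate groups from glycosaminoglycans and sulfatides, 3 were called lower. Sgsh, heparan N-sulfatase, was at 78.0, 77.8 and 98.6 CPM in control and 39.5, 48.1 and 46.4 CPM in APPswe libraries. Control replicate 3 was the highest and all APPswe libraries were far below, for a log2 fold change of -0.93 (SE 0.13, edgeR adjusted p = 0.00451). Arsa and Arsb, arylsulfatases A and B, changed by -0.62 and -0.73. Ids, iduronate 2-sulfatase, had overlapping groups and a log2 fold change of -0.03 (SE 0.13, edgeR adjusted p = 0.894), which turned positive without control replicate 1 or 3 or APPswe replicate 2 (0.05, 0.03 and 0.01), with library totals alone (0.04) and with limma on FPKM (0.05).

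The 7 genes for lipid breakdown held both directions, with 5 lower and 1 higher. Without APPswe replicate 1, 2 or 3, 3 were called lower. Ppt1, palmitoyl-protein thioesterase, which strips fatty acids from proteins, was at 283, 219.7 and 257 CPM in the control libraries and 131, 118 and 118 CPM in the APPswe libraries. Even the lowest control library, replicate 2, was well above APPswe. This gives a log2 fold change of -1.05 (SE 0.11, edgeR adjusted p = 0.00179). Asah1, acid ceramidase, had 504, 522 and 475 CPM in control and 306, 281 and 271 CPM in APPswe. Its replicates agreed within each genotype, and it changed by -0.81 (SE 0.08, edgeR adjusted p = 0.00165).

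Psap, the precursor of the saposins that present sphingolipids to their enzymes, was the third most abundant of the 53 genes, at a mean of 2189 FPKM. It was counted at 6202, 5101 and 6506 CPM in control and 4297, 4706 and 4731 CPM in APPswe. All APPswe libraries were below all control libraries, with control replicate 2 close to them. The log2 fold change of -0.37 (SE 0.11) narrowly missed the threshold (edgeR adjusted p = 0.0542), and was -0.47 without control replicate 2 (edgeR adjusted p = 9.40e-05). With DESeq2's size factors it passed at edgeR adjusted p = 0.0495, with the name style in the model at 0.0417, and by DESeq2 itself at 0.00808. Over all settings tried with edgeR, DESeq2 and limma its adjusted p ran from 9.40e-05 to 0.172.

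Gm2a, the activator that lifts the ganglioside GM2 out of the membrane for breakdown, was called higher. No other of the 53 genes was called higher by edgeR with TMM scaling and the 6 libraries. Library totals alone or limma on FPKM called 2 higher, M6pr among them. The levels of Gm2a were 150.1, 149.9 and 152 CPM in control and 184, 194 and 189 CPM in APPswe. The control libraries were nearly equal and every APPswe library was above them. Its log2 fold change was 0.32 (SE 0.06, edgeR adjusted p = 0.0157). It lost its call without control replicate 1 (edgeR adjusted p = 0.0543), control replicate 3 (0.0517), APPswe replicate 2 (0.0915) or APPswe replicate 3 (0.0846), and its log2 fold change stayed between 0.31 and 0.35 whichever library was left out. Smpd1, Npc2 and Lipa were called lower, with log2 fold changes from -0.54 to -0.29, and the calls were lost for Smpd1 without any APPswe library and for Npc2 without any library except control replicate 2. Npc2 also lost its call with library totals alone, no filter or the replicate block, at edgeR adjusted p = 0.0768, 0.0535 and 0.0765, and with limma on FPKM (0.0690 to 0.0708).

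None of the 3 MiT/TFE transcription factors among the 53 genes was called by edgeR, DESeq2 or limma on FPKM, and none had an unadjusted p of at most 0.05 in the edgeR test. Tfeb, the factor best known for driving lysosome genes, was at 20.6, 20.3 and 24.4 CPM in control and 23.1, 25.2 and 26.2 CPM in APPswe. The groups overlapped, and the log2 fold change was 0.19 (SE 0.11, edgeR adjusted p = 0.260). Tfe3, its relative and the most abundant of the 3 at a mean of 41.2 FPKM, had 120.4, 117 and 110.4 CPM in control and 113, 111 and 111 CPM in APPswe. The APPswe libraries lay within the control range. Its log2 fold change of -0.05 (SE 0.07, edgeR adjusted p = 0.617) took the opposite sign with library totals alone (0.02) and with limma on FPKM. Mitf, which also acts in osteoclasts and pigment cells, was counted at 54.7, 36.5 and 48.3 CPM in control and 49.5, 38.6 and 37.6 CPM in APPswe. The ranges overlapped, with a log2 fold change of -0.15 (SE 0.18, edgeR adjusted p = 0.578). For Mitf it was -0.29 without control replicate 2 (edgeR adjusted p = 0.0598) and ran to -0.02 with another library left out. Tfec, the other member of the family and a gene of the related lists, was called higher, with all APPswe libraries above all control libraries, and means of 13.1 against 18.7 CPM for control against APPswe (SD 0.848 and 1.31, n = 3 each; log2 fold change 0.51, SE 0.11, edgeR adjusted p = 0.0208). It kept its call without control replicate 2 and lost it without any other single library, with edgeR adjusted p up to 0.0817. RNA levels do not show how much of these proteins was in the nucleus.

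M6pr, the cation-dependent mannose 6-phosphate receptor that delivers newly made hydrolases, had 279, 296 and 284 CPM in control and 329.7, 311 and 331 CPM in APPswe libraries. All APPswe libraries were above all control libraries. The log2 fold change of 0.18 (SE 0.07) did not pass the test with the 6 libraries (edgeR adjusted p = 0.117). It passed without control replicate 2 (0.21, edgeR adjusted p = 0.0157) and with library totals alone (0.25, edgeR adjusted p = 0.0492), as well as with limma on FPKM, and over the settings tried with edgeR, DESeq2 and limma its adjusted p ran from 0.0157 to 0.318.

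The V1 part of the V-ATPase is the ring outside the membrane that hydrolyses ATP. Its 8 subunit genes had a median log2 fold change of -0.26, against -0.64 for the 35 hydrolases and their helper proteins. Of the 8, 1 was called lower with the 6 libraries, where 12% of all genes were. Without control replicate 2, 6 were called lower, where 25.0% of all genes were. The difference between the roles was not tested. Summed, they reached 1826, 1595 and 1770.3 CPM in control and 1489.8, 1455 and 1458 CPM in APPswe. Atp6v1h, a regulatory subunit, was the subunit called, with 175, 124 and 155 CPM in control and 113, 102 and 102 CPM in APPswe. Control replicate 2 was nearest to the APPswe libraries, and the log2 fold change was -0.51 (SE 0.13, edgeR adjusted p = 0.0359). This call held without control replicate 2 (-0.64, edgeR adjusted p = 5.69e-05) and was lost when control replicate 1 or 3 or APPswe replicate 1, 2 or 3 was left out, at edgeR adjusted p = 0.0862, 0.0919, 0.0873, 0.139 and 0.137. It was also lost with library totals alone (edgeR adjusted p = 0.0558), with the name style in the model (0.0750) and with limma on FPKM (0.0759 to 0.0913).

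Atp6v1a, the catalytic subunit, was at 365, 439 and 363 CPM in control and 328, 322 and 316 CPM in APPswe. Atp6v1b2, its partner in the ring, had 334, 301 and 348 CPM in control and 288, 298 and 295 CPM in APPswe. In both genes all APPswe libraries were below all control libraries, yet the log2 fold changes of -0.27 and -0.16 did not pass (edgeR adjusted p = 0.0870 and 0.200). Without control replicate 2 these values were -0.17 and -0.21. Atp6v1e1, of the peripheral stalk, was counted at 252, 172 and 239 CPM in control and 173, 160.3 and 158 CPM in APPswe. Atp6v1f, of the central stalk, had 159, 113 and 171 CPM in control and 104, 116 and 124 CPM in APPswe. Control replicate 2 fell within the APPswe range for both, and their log2 fold changes were -0.43 and -0.36 (edgeR adjusted p = 0.0808 and 0.158). Atp6v1d, also of the central stalk, was at 133, 107 and 115 CPM in control and 108, 94.9 and 97.5 CPM in APPswe. Its ranges overlapped too, and the change of -0.24 on the log2 scale did not pass (edgeR adjusted p = 0.141). Without control replicate 2 these 5 subunits were called lower, at edgeR adjusted p = 0.0268, 0.0113, 3.58e-05, 0.000382 and 0.0120 in the order given, and DESeq2 called Atp6v1e1 with the 6 libraries (adjusted p = 0.0298).

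For the last pair the difference was within the spread between replicates. Atp6v1c1, a subunit that regulates assembly of the pump, had 141, 156 and 128 CPM in control and 142, 127 and 123 CPM in APPswe. Atp6v1g1, of the peripheral stalk, had 268, 183 and 252 CPM in control and 233, 234 and 244 CPM in APPswe. Both overlapped between the genotypes, with log2 fold changes of -0.12 (SE 0.10) and 0.01 (SE 0.14), edgeR adjusted p = 0.450 and 0.954. The value for Atp6v1c1 was -0.04 without control replicate 2 and ran to -0.19 with another library left out. Atp6v1g1 took a negative sign without control replicate 2 (-0.13) and without APPswe replicate 3 (-0.01).

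Other genes of the pathway were counted from 7 further lists. Of the 131 of these genes that were tested, 54 were called lower and 2 higher, with a median log2 fold change of -0.27. Leaving out a library moved these counts: 30 were lower without APPswe replicate 2 and 30 without APPswe replicate 3, in fits that called 3.90% and 3.96% of all genes lower against 12% with the 6 libraries. The number higher was 8 without control replicate 2 (9 with Plbd1, which had too few counts to be tested with the 6), 0 without APPswe replicate 3 and 1 without any other single library. Of the other lysosomal hydrolases, 18 of 32 were called lower and 28 had a negative log2 fold change, and without control replicate 2, 25 were lower and 3 higher. Cathepsin K (Ctsk) and the acid phosphatase gene Acp5 were placed in the osteoclast list instead, and both were called higher. Ctsk was at 211, 131 and 203 CPM in control and 324, 308 and 295 CPM in APPswe (0.77, SE 0.18, edgeR adjusted p = 0.0259). Acp5 was at 6.87, 3.71 and 7.11 CPM in control and 187, 205 and 208 CPM in APPswe (5.09, SE 0.24, edgeR adjusted p = 0.000296). With 1 library left out, Ctsk kept its call in 3 of 6 fits and Acp5 in all 6. Dpp7, a dipeptidyl peptidase, was at 152, 124 and 157 CPM in control and 55.8, 59.4 and 58.7 CPM in APPswe (log2 fold change -1.32, SE 0.11, edgeR adjusted p = 0.000856). Ctse, cathepsin E, was at 29.7, 0.899 and 36.1 CPM in control, where replicate 2 was near the APPswe level, and 0.280, 0.167 and 0.169 CPM in APPswe, which rests on 11 counts in all. The ratio of summed counts, APPswe over control, was 0.00927 (95% exact binomial interval 0.00461 to 0.0166, counting error only), and the call (edgeR adjusted p = 0.0199) was lost without APPswe replicate 1, 2 or 3, at edgeR adjusted p = 0.0867, 0.0917 and 0.0907, and with limma on log2(FPKM + 1) at 0.0782.

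Of the other lysosomal membrane proteins, 12 of 25 were lower and 1 was higher, Slc38a9. Without control replicate 2, 19 were lower and 2 higher, and without APPswe replicate 3 none was higher by edgeR, where 1 was with DESeq2, limma or an unadjusted p of at most 0.05 over the 6 libraries. Gpnmb, a glycoprotein of phagocytes and bone cells, was at 5129.9, 4777 and 5681 CPM in control and 2198, 2456 and 2475 CPM in APPswe (-1.13, SE 0.10, edgeR adjusted p = 0.00104). Cd68, which also marks macrophages, had 1129.7, 1127 and 1193 CPM in control and 543, 599 and 609 CPM in APPswe (-0.98, SE 0.08, edgeR adjusted p = 0.000930). Slc15a3, a peptide and histidine transporter, had 87.1, 117 and 105 CPM in control and 41.8, 44.4 and 43.7 CPM in APPswe (-1.26, SE 0.12, edgeR adjusted p = 0.00127). All 3 separated the genotypes.

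Mannose 6-phosphate tagging and sorting had 6 of 15 genes lower, and 2 without APPswe replicate 2 or APPswe replicate 3. The sorting receptor Sorl1 was at 34.4, 43.7 and 34.9 CPM in control and 21.4, 21.4 and 18.5 CPM in APPswe (-0.88, SE 0.13, edgeR adjusted p = 0.00519). Nagpa, which uncovers the mannose 6-phosphate tag, was at 71.0, 70.8 and 78.8 CPM in control and 41.0, 49.9 and 49.7 CPM in APPswe (-0.65, SE 0.10, edgeR adjusted p = 0.00706). The retromer gene Vps35 was at 219, 269 and 191 CPM in control and 166, 155 and 150.5 CPM in APPswe (-0.53, SE 0.13, edgeR adjusted p = 0.0325). All 3 separated the genotypes. The call of Vps35 was lost without control replicate 1 or APPswe replicate 1, 2 or 3, at edgeR adjusted p = 0.0696, 0.0901, 0.128 and 0.129. It was also lost with library totals alone, with the replicate number as a block and with the name style in the model, at edgeR adjusted p = 0.0545, 0.0550 and 0.0511, and with limma on FPKM (0.0633 to 0.0769).

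Lysosomal mTORC1 and MiT/TFE control had 5 of 22 genes lower, against 12% of all genes, and 1 higher, Tfec, against 10.5%. The number lower was 8 without control replicate 2, where 25.0% of all genes were. It was 3 without APPswe replicate 1 and 2 without APPswe replicate 2 or 3, where 5.08%, 3.90% and 3.96% of all genes were. Without control replicate 2, 2 were higher, Tfec and Mlst8 (0.33, edgeR adjusted p = 0.0318), where 23.3% of all genes were. None of the list was higher by edgeR without any other library, where DESeq2, limma and an unadjusted p of at most 0.05 called 1 with the 6 libraries. Among its Rag GTPases, Rragd was at 32.8, 15.2 and 35.6 CPM in control and 5.16, 6.02 and 5.39 CPM in APPswe (-2.33, SE 0.32, edgeR adjusted p = 0.00458), with control replicate 2 between the groups. Rragc was at 279, 242 and 272 CPM in control and 170.4, 149 and 154 CPM in APPswe (-0.74, SE 0.09, edgeR adjusted p = 0.00311). Rragb was low, at 2.89, 3.09 and 4.23 CPM in control and 1.51, 1.45 and 1.40 CPM in APPswe (-1.22, SE 0.23, edgeR adjusted p = 0.0124), and lost its call without APPswe replicate 1, 2 or 3 (edgeR adjusted p = 0.0558, 0.0720 and 0.0723).

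Autophagy had 10 of 32 genes lower, against 12% of all genes. Without control replicate 2, 15 were lower and 1 was higher, against 25.0% and 23.3% of all genes. The number lower was 5 without control replicate 1 and 6 without control replicate 3, where 8.29% and 7.79% of all genes were. It was 4 without APPswe replicate 1 and 3 without APPswe replicate 2 or 3, where 5.08%, 3.90% and 3.96% of all genes were. Tecpr1, which joins autophagosomes to lysosomes, was at 143, 105 and 166 CPM in control and 40.2, 52.4 and 51.8 CPM in APPswe (-1.52, SE 0.19, edgeR adjusted p = 0.00321). Plekhm1, an adaptor of the same step, was at 132, 135 and 134 CPM in control and 83.0, 87.7 and 84.5 CPM in APPswe (-0.65, SE 0.06, edgeR adjusted p = 0.00150). The lipid kinase Pik3c3 was at 71.8, 45.0 and 60.7 CPM in control and 40.7, 35.6 and 34.6 CPM in APPswe (-0.68, SE 0.17, edgeR adjusted p = 0.0347). It was also called without control replicate 2 and lost its call without any other library, at edgeR adjusted p = 0.0795 and 0.0854 for control replicates 1 and 3 and 0.0831, 0.131 and 0.133 for APPswe replicates 1, 2 and 3. With the name style in the model the call was also lost (edgeR adjusted p = 0.0761), and limma on log2(FPKM + 1) gave -0.13 (adjusted p = 0.365), so the deposited FPKM show less of a difference than the counts.

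Of 4 cathepsin inhibitors tested, 3 were lower, and 1 without APPswe replicate 2 or APPswe replicate 3. Cst6 was at 30.3, 19.3 and 33.0 CPM in control and 5.10, 4.62 and 6.01 CPM in APPswe (-2.39, SE 0.23, edgeR adjusted p = 0.00147). Cst3, cystatin C, was at 803, 688 and 794 CPM in control and 539, 544 and 485 CPM in APPswe (-0.54, SE 0.10, edgeR adjusted p = 0.00992). Cst7, cystatin F, was at 3.70, 3.26 and 4.06 CPM in control and 1.96, 1.28 and 1.40 CPM in APPswe (-1.24, SE 0.24, edgeR adjusted p = 0.0135). The groups did not overlap for any of the 3. Without APPswe replicate 2 or 3 the calls of Cst3 and Cst7 were lost, at edgeR adjusted p = 0.0512 and 0.0610 for Cst3 and 0.0763 and 0.0774 for Cst7. The 1 other V1 isoform with enough counts, Atp6v1g2, was not called (edgeR adjusted p = 0.792).

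**Figure D5:**
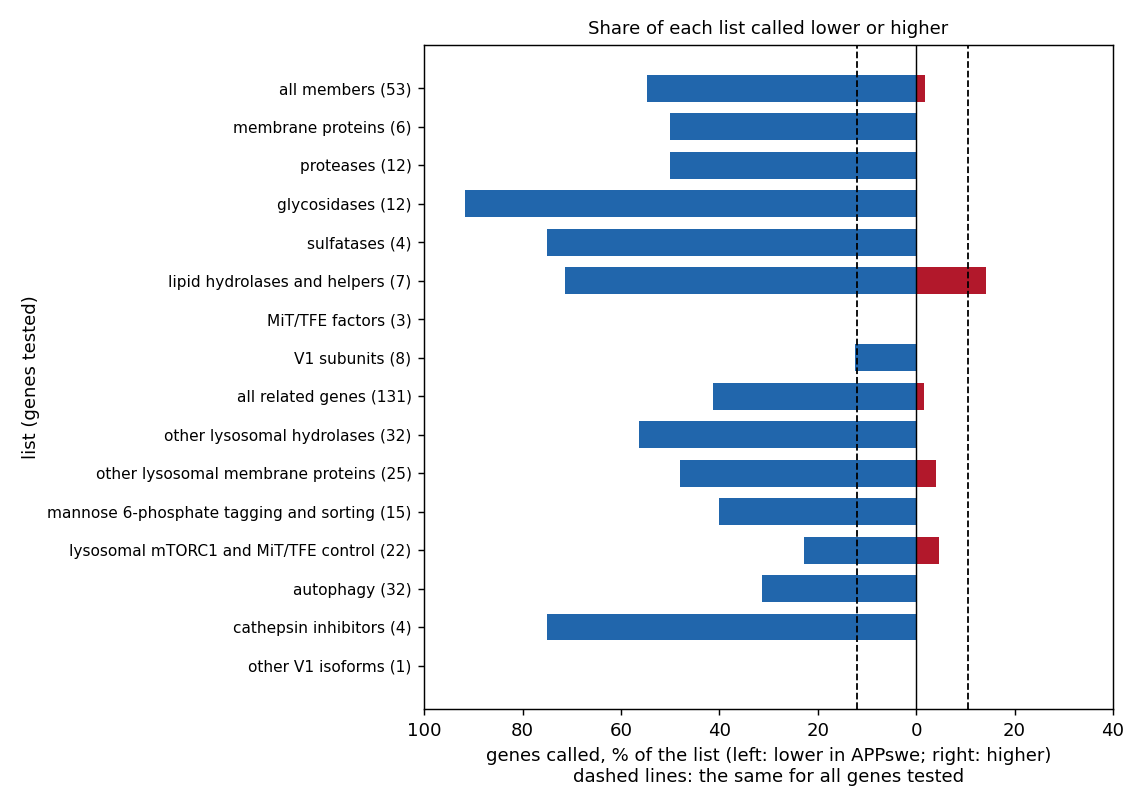
Share of each list called lower (bars to the left) or higher (bars to the right) in APPswe by edgeR, in percent of the genes tested, whose number is in brackets; dashed lines mark 12% lower and 10.5% higher over all genes tested. The bar of the glycosidases stands for 11 of 12 genes, and that of the V1 subunits for 1 of 8, or 6 of 8 without control replicate 2.

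Marker genes of other cell types were compared in the same way. The 13 macrophage genes summed to 23245, 17517 and 24806 CPM in control and 12715, 13593 and 13698 CPM in APPswe, and 6 of them were called lower (Adgre1, Itgam, Lyz2, C1qa, C1qb and C1qc) and 1 higher (Aif1). The number lower was 9 without control replicate 2, 3 without control replicate 1 or control replicate 3, 1 without APPswe replicate 1 or APPswe replicate 2 and 2 without APPswe replicate 3. The number higher was 3 without control replicate 2 and 0 by edgeR without an APPswe library, where DESeq2, limma and an unadjusted p of at most 0.05 in edgeR gave 1 with the 6 libraries. Without Lyz2, the most abundant, the sums were 8451, 7745 and 8721 CPM in control and 5567, 5753 and 5819 CPM in APPswe. The receptor gene Csf1r, at 778, 1362 and 819.5 CPM in control and 939, 935 and 937 CPM in APPswe, was not called (-0.07, edgeR adjusted p = 0.832), and was higher without control replicate 2 (0.23, edgeR adjusted p = 0.00556). The 5 endothelial genes summed to 190.0, 26.8 and 196 CPM in control and 10.7, 9.47 and 11.1 CPM in APPswe, with Emcn the most abundant and 1 called lower (Kdr), or 5 without control replicate 2.

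The 12 osteoclast genes summed to 436, 296 and 424 CPM in control and 856, 857 and 838 CPM in APPswe, 5 of the 10 tested were called higher, Ctsk was the most abundant, and Calcr and Siglec15 were at 0 in a library. Of the 10, 3 had a negative log2 fold change. Itgb3 had all APPswe libraries below all control libraries and was not called (-0.79, edgeR adjusted p = 0.0672). Without control replicate 2, 7 osteoclast genes were higher and 1 was lower, Itgb3 (-1.04, edgeR adjusted p = 2.68e-06), where 23.3% and 25.0% of all genes were. The 10 skeletal muscle genes summed to 2.66, 11.0 and 2.65 CPM in control and 154, 149 and 153 CPM in APPswe, all 9 tested were called higher, Acta1 was the most abundant, and Myod1, Myh8, Actn2 and Ckm were at 0 in at least 1 library. The 5 fibroblast genes summed to 3165, 1536 and 3159 CPM in control and 5545, 5688 and 5625 CPM in APPswe, with Col3a1 the most abundant and 2 called higher, and without control replicate 2 also 2 called lower. The 11 osteoblast genes summed to 8665, 11469 and 9723 CPM in control and 7926, 8726 and 8706 CPM in APPswe, with Col1a2 the most abundant and 2 of 10 tested called higher (Sp7 and Runx2). Of all genes, 10.5% were called higher with the 6 libraries. Without control replicate 2, 3 osteoblast genes were higher and 5 lower, where 23.3% and 25.0% of all genes were. With edgeR 1 was higher without control replicate 3, and none was called without control replicate 1 or an APPswe library, where DESeq2, limma and an unadjusted p of at most 0.05 in edgeR gave 2 higher with the 6 libraries. DESeq2 and that unadjusted p also gave 1 osteoblast gene lower. No gene of the neutrophil, lymphocyte, mast cell and adipocyte lists exceeded 3.50 CPM in a library. The part of these marker genes in the change of the lysosome genes was not tested.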

How the data were processed

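RNA of tdTomato-positive cells was sequenced in 6 libraries, grouped by the genotype in the sample labels. The deposited counts are whole reads per gene without normalization, and the deposited FPKM values were computed by the authors from the same libraries. Their processing notes name GRCm38; the aligner and counting tool are not given in the sources used here. The authors' table also holds their own log2 fold changes and p-values between the genotypes, which were not used. Blank FPKM values fall in 397 genes in 3 libraries and in 716 genes in the other 3; such genes were dropped from the fits on FPKM, and no lysosome gene is among them.

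In R 4.3.3, edgeR 4.0.16 was used with TMM scaling. Its filterByExpr retained 13484 of 17830 genes, for which the quasi-likelihood test compared APPswe with control without a covariate. P-values were adjusted over all genes tested. The SE is the log2 fold change over the square root of F. The alternatives were DESeq2 1.42.0, other normalizations and filters, an adjusted p of at most 0.01, the replicate number or name style in the model, each library left out in turn, and limma 3.58.1 on log2(FPKM + 1) or log2(FPKM + 0.1). No pair of libraries held values alike within sampling noise, but APPswe replicates 2 and 3 came nearest, with a chi-square per degree of freedom of 1.57. The next lowest value was 5.94, for control replicates 1 and 3. Over the lysosome genes the root mean square difference in log2 CPM between APPswe replicates 2 and 3 was 0.0573. A count of 3, taken as the floor of detection, is 0.167 to 0.173 CPM and covers counting error only.

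Members printed with every library's value were those called, up to the 12 largest changes in each direction, the 6 with the highest mean FPKM, Lamp1, Lamp2, Tfeb, Tfe3, Mitf, M6pr and the V1 subunits; of each related list, up to 3 called genes with the largest change were printed. A gene that this rule names is not reported here. Npc1, Scarb2, Cln3, Idua, Arsa, Arsb, Ids and Tfec, and the single marker genes, were given values after these had been seen. The members and lists were chosen with earlier results of these data known. Promoter windows came from RefSeq (GRCm38.p6), matched by gene number; the first 30 bases after the start were found in a GENCODE transcript of the same gene, in the sense direction, for 44 of the 53 windows that the 44 matched genes have and in the antisense direction for 0. The human transgene was not analysed here.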

Additional observations from a re-analysis of the deposited data

How the results depend on the processing

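With library totals alone 2 lysosome genes were higher, 1 met the fold limit and 4 related genes were higher. With limma on log2(FPKM + 1), on log2(FPKM + 0.1) and without a filter, 1054, 1064 and 1029 of all genes were lower, and in each fit 2 lysosome genes were higher, 1 met the fold limit and 4 related genes were higher. With the name style in the model 5 lysosome genes met the fold limit. At an adjusted p of at most 0.01, 528 of all genes were higher and 593 lower, 0 lysosome genes were higher with edgeR (unadjusted p of at most 0.05: 2; DESeq2 1, limma 2), and 1 related gene was higher and 31 lower. With the replicate number as a block 933 of all genes were higher and 1088 lower, 26 lysosome genes lower and 1 related gene higher. Deviations of same-numbered libraries correlated at 0.091, -0.049 and 0.214; over all pairs of a control and an APPswe library, the 4 of 1 name style lay from 0.091 to 0.214 and the 5 of different styles from -0.284 to -0.042. Leaving out each library in turn gave 480 to 3199 of all genes higher and 536 to 3438 lower, 0 to 2 lysosome genes higher and 20 to 41 lower, 2 to 4 past the fold limit, and 0 to 9 related genes higher and 30 to 78 lower. The median log2 fold change of the lysosome genes lay between -0.51 and -0.33 under every setting.

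Among the lysosome and related genes given with every library's value, markers aside, signs turned for 4, none of them called with the 6 libraries. Of these, Cd63 was called lower without control replicate 2. Ctsc, Ctsh, Ctso and Ids turned under at least 1 setting too. The log2 fold change of Cd63 was 0.027 with library totals alone and 0.066 in each of the 3 limma fits, and ran from -0.231 to 0.071 with a library left out. For Tfe3 it was 0.019 with library totals alone and 0.038, 0.039 and 0.038 with limma on log2(FPKM + 1), on log2(FPKM + 0.1) and without a filter. That of Atp6v1g1 was -0.016 with the name style in the model and ran from -0.132 to 0.120 with a library left out, and that of Ctsl ran from -0.052 to 0.092. For the genes named, 494 values kept direction and call under the settings with all libraries, 27 lost a call and 8 gained one. With a library left out 244 kept both, 35 lost a call and 9 gained one. The cause was not tested. At these depths a gene at or under 3 counts in both genotypes cannot be compared.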
